A study of Mus musculus with 16 samples.

Results

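The genes of the mitochondrial ribosomal proteins were taken as all genes whose symbol starts with Mrpl or Mrps followed by a number. The rule used 1 transcript per gene, the one with most ribosome footprints, and a mean of at least 10 RNA-seq counts, and no comparison between groups entered it. All 78 genes with such a symbol passed that minimum, out of 22579 genes in the tables. They were described in hair follicle stem cell (HFSC) organoids of C57BL/6J mice, cultured as 3D–3C organoids for 2 weeks and then sorted by integrin α6 and CD34 into α6+/CD34- progenitors and α6+/CD34+ HFSCs. Both populations came from organoids that were left untreated or received N1-acetylspermidine (N1-AcSpd), an acetylated polyamine, for the last 72 h. Each of the 4 groups held 2 RNA-seq and 2 Ribo-seq libraries, numbered 1 and 2, so 16 libraries in all, with both assays made from the same lysate. The methods name 2 donors, but whether a number marks the same donor in every group is not given in the sources used here. With 2 libraries a group, p-values measured the spread between these libraries.

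Mitochondria carry their own ribosome, which translates the few membrane subunits of the respiratory chain that mitochondrial DNA encodes. Its RNA is made in the mitochondrion, whereas all of its proteins are encoded in the nucleus, translated on cytosolic ribosomes and imported. A part of them descends from the bacterial ribosome, and the others joined the particle during the evolution of mitochondria.

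The 78 genes encoded 51 proteins of the large (39S) subunit and 26 of the small (28S) subunit. Of the subunits, 46 have a bacterial homologue, 30 are specific to mitochondria and 1 was not assigned. The symbols Mrps18a and Mrps30 depart from the subunit that their letter names, since Mrps18a and Mrps30 encode large-subunit proteins. Mrps36 keeps its symbol but encodes a subunit of the oxoglutarate dehydrogenase complex, and it was kept because the rule takes it in. The genes lay on 17 chromosomes of GRCm38, with at most 11 on 1 chromosome (chromosome 11).

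Sequences bear on these genes at 2 points, the promoter and the coding sequence. RefSeq (GRCm38.p6) gave a promoter, 250 bases before to 50 after the start, for 69 of the 78 genes. The letters CCGGAAG, a core of the sites bound by ETS factors such as GABP, were looked for on both strands and stood in 25 of these 69 promoters, or 36.2%. The same letters stood in 9.12% of 27025 promoters of all genes, in 17.1% of the 10799 promoters of genes tested by RNA-seq, and in 40.4% of 57 promoters of cytosolic ribosomal protein genes. In 20 of the 25 genes a match lay within 60 bases of the start. Of the 5 members with the highest RNA level, 4 held the letters, and their windows of 30 bases are printed because these genes lead the order of levels given next. Capitals mark the 7 letters, which read CTTCCGG where they lie on the strand opposite the gene, and each window is written along the gene.
Mrpl33, chr5:31613937-31613966, plus strand: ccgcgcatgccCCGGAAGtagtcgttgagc
Mrpl51, chr6:125192099-125192128, plus strand: caggggctaaaCCGGAAGtatttgactgga
Mrps21, chr3:95871478-95871507, minus strand: cgtagcttccgCTTCCGGtccgcagagacc
Mrpl52, chr14:54426851-54426880, plus strand: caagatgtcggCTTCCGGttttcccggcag
Among the 5 members with the lowest RNA level, 1 (Mrps27) held the letters. The median RNA level was 89.1 CPM per kb (CPM, counts scaled to the size of the library) over the 25 genes with a match and 53.4 over the 44 without, a description for which no test was made.

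Other promoter letters were searched in the same windows on both strands, and matches can overlap one another. The NRF1 core GCATGCGC stood in 11.6% of the members' promoters, 2.80% of all promoters and 5.21% of those of tested genes. The YY1 core AAGATGG stood in 18.8%, 6.48% and 7.04%, in the same order. The GC box GGGCGG stood in 49.3%, 35.9% and 63.3%, the CCAAT box in 39.1%, 37.9% and 38.8%, the TATA box letters TATAAA in 5.80%, 14.2% and 7.37%, and the E-box CACGTG in 7.25%, 7.24% and 10.0%. A match of these letters is a description of the window and not a site of binding.

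Copies of the coding sequence elsewhere in the genome were counted because a footprint is short. Each coding sequence was cut into all words of 28 bases, and a word was called unique when it stood at no other place of the 21 chromosomes of GRCm38.p6 on either strand. All words were unique in 40 members, whereas under 90% of the words were unique in 24 members and under 50% in 12. The first word that each of 4 members shared with its main copy is shown, since these members lie at the bottom of the footprint levels below.
Mrpl23, coding position 96, also at chr2:74591848-74591875 in Mrpl23-ps1: gtaccccctttaccaactgggtggcccc
Mrps33, coding position 1, also at chr7:54412451-54412478 in Gm5776: atgtctccgctttcggagtatgcactgc
Mrps36, coding position 1, also at chr17:53866993-53867020 in Mrps36-ps1: atgggcagcaagatggcttccgccacca
Mrpl30, coding position 47, also at chr11:3471310-3471337 in 8430429K09Rik and Gm11945: tgcagactgtgaagaaaggtgcagaatc
All 4 copies lay on the minus strand. Mrpl23 shared 394 words with its copy, Mrps33 263, Mrps36 199 and Mrpl30 121. No base is in capitals, since the whole word is shared.

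RNA-seq libraries held 21601141 to 31505435 counts on the transcripts used, and Ribo-seq libraries 34467 to 267921. All 78 members had at least 219 RNA-seq counts in every library, with means from 281 (Mrps36) to 2830 (Mrpl12). Ribo-seq gave 154 to 1516 footprints on all members together in a library, and 16 members had a mean of at least 10 footprints. The labelled sort was visible in the RNA, since Cd34, the sorted surface protein, and Krt15, a keratin of the hair follicle bulge, were higher in untreated HFSCs than in untreated progenitors by 4.70 ± 0.35 (SE) and 2.01 ± 0.12 on the log2 scale (edgeR quasi-likelihood test, Benjamini-Hochberg adjusted p = 0.00302 and 0.000816). The summed levels of the fibroblast, melanocyte, immune and endothelial marker lists reached at most 13.4 CPM in any RNA-seq library.

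The members were expressed in all 8 RNA-seq libraries, and their levels spanned 15.2-fold. Levels are counts scaled by TMM to an equal library size (CPM), divided by the coding length in kb. RNA-seq counts were equal in 99.7% of 5919 pairs of transcripts that share their coding exons but not their other exons. Ribo-seq counts were equal in 92.9% of these pairs. The pairs were chosen by an RNA-seq sum of at least 200, with no minimum of footprints. Pairs without footprints thus count as equal, and the Ribo-seq share cannot show which region was counted. The RNA-seq counts were therefore taken to cover the coding sequence, and the same was assumed for the footprints. The mean level per kb ran from 16.4 for Mrps31 to 248 for Mrpl33, with a median of 63.5. All 78 lay above 13.6, the median of the 14144 genes ranked, whereas the 77 cytosolic ribosomal protein genes had a median of 2427. The large-subunit genes had a median of 65.9 and the small-subunit genes one of 55.1. The genes with a bacterial homologue had a median of 67.2 and those specific to mitochondria one of 55.1.

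The 5 highest members by this measure were Mrpl33, Mrpl51, Mrps21, Mrpl52 and Mrpl30. Mrpl33, the homologue of bacterial L33 (GRCm38 chr5:31613985-31664384), was at 78.2 and 89.7 CPM in untreated progenitors, 68.1 and 81.6 in untreated HFSCs, 85.1 and 84.6 in treated progenitors, and 59.3 and 90.5 in treated HFSCs. The untreated groups overlapped one another, and the treated HFSC libraries were the lowest and the highest of all 8. The Mrpl33 transcript used here is annotated as a target of nonsense-mediated decay, so its coding length, and with it the level per kb, rests on that annotation. Mrpl51, a mitochondria-specific large-subunit protein, stood next at 245 per kb, then Mrps21, the homologue of bacterial S21, at 231, Mrpl52 at 221 and Mrpl30 at 185. Mrpl12, the large-subunit stalk protein that also binds the mitochondrial RNA polymerase, followed at 184 per kb and had the highest level without division by length, 111 CPM.

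The 5 lowest members were Mrps31, Mrps27, Mrpl1, Mrps5 and Mrps9. Mrps31, a small-subunit protein specific to mitochondria (chr8:22411361-22429665), was at 16.8 and 18.8 CPM in untreated progenitors, 20.4 and 21.6 in untreated HFSCs, 17.8 and 18.6 in treated progenitors, and 18.4 in both treated HFSC libraries. The untreated HFSC libraries were thus the highest for this gene. Mrps27 had a mean of 25.3 per kb, Mrpl1 25.9, and Mrps5 and Mrps9, homologues of bacterial S5 and S9, both 27.3. Libraries of a group differed by an SD of 0.0354 to 0.274 on the log2 scale over the members, with a median of 0.141, against 0.134 for the 6872 genes in the same range of counts. Of the 77 pairs of neighbours in the order, 73 differed by less than this median spread and 4 by more. With the counts summed over all transcripts of a gene, the order of the levels per kb had a Spearman correlation of 0.829 with the order given here over the 78 members, and 3 of the 5 highest stayed among the highest 5. Such sums repeat the counts of coding exons that several transcripts share. They therefore also reflect the number of annotated transcripts and are no independent check of the order.

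**Figure D1:**
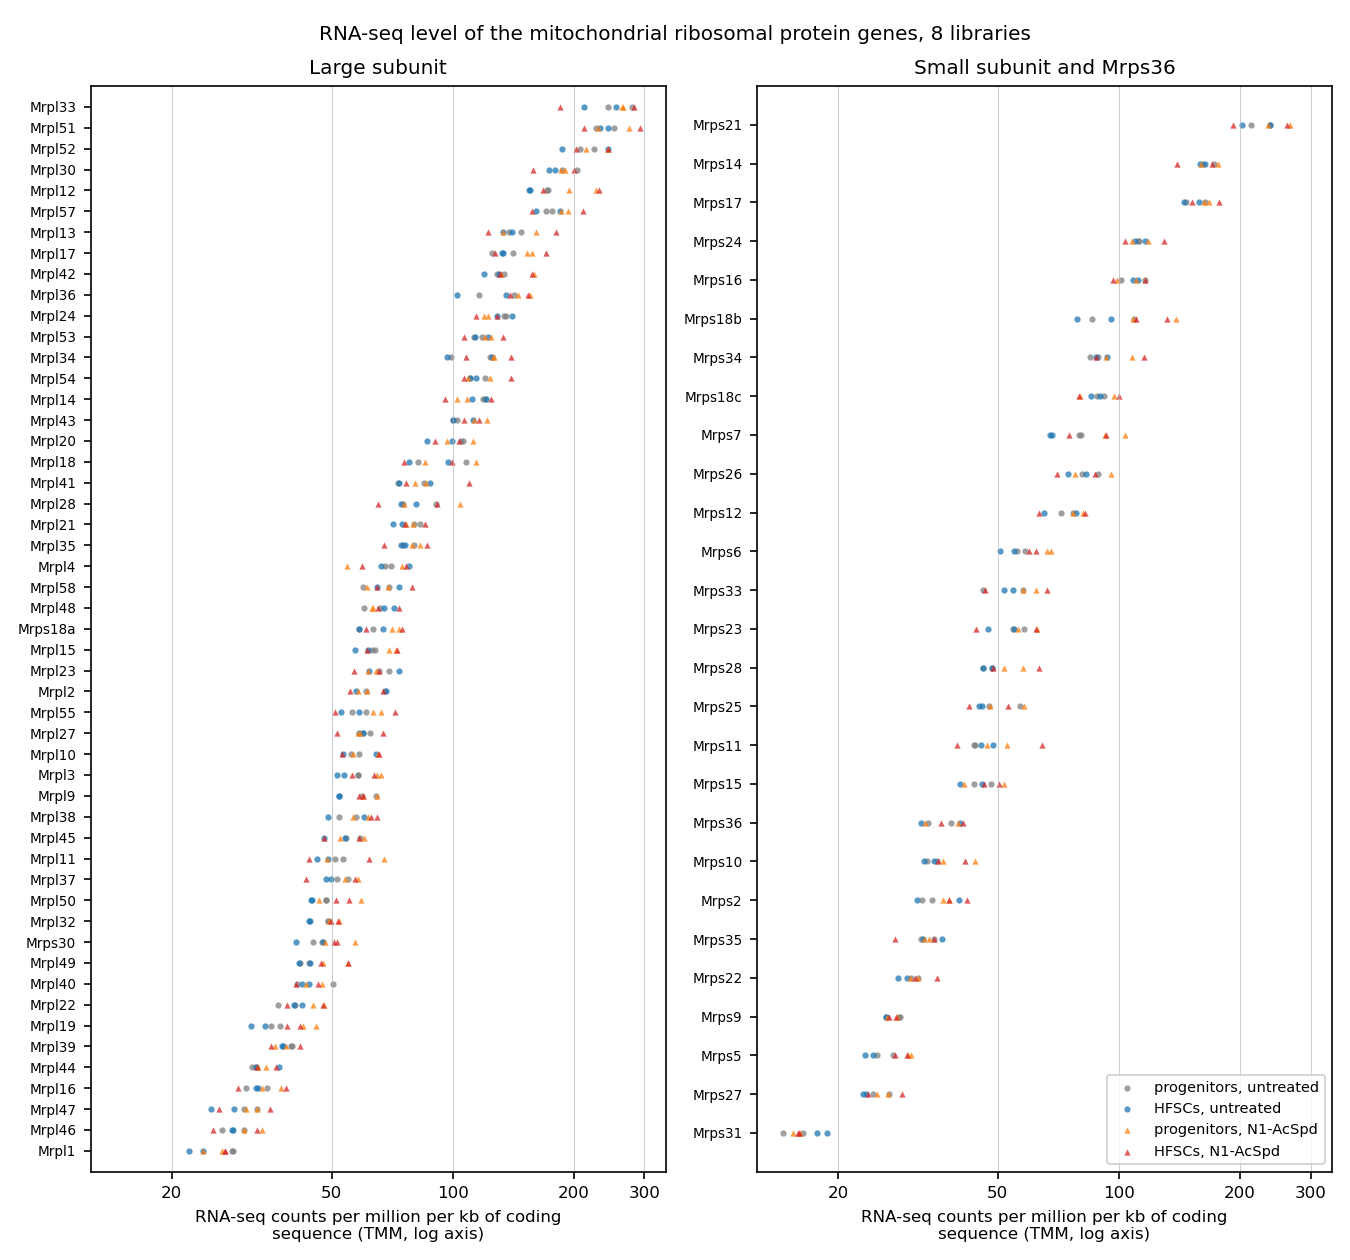
RNA-seq level of each member in each of the 8 libraries, in TMM-scaled CPM per kb of coding sequence on a log axis, with large-subunit genes on the left, small-subunit genes and Mrps36 on the right, circles for untreated and triangles for N1-AcSpd. The spread between members, from 16.4 for Mrps31 to 248 for Mrpl33, was far wider than the spread between the libraries of any member.

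The share of the RNA that fell on the 78 genes differed between libraries of the same group. It was 0.343% and 0.345% of the counts in untreated progenitors, 0.337% and 0.352% in untreated HFSCs, 0.385% and 0.344% in treated progenitors, and 0.326% and 0.394% in treated HFSCs. The exact (Clopper-Pearson) 95% interval of the first value was 0.341% to 0.346%, and this interval covers counting error only. Treated HFSC replicate 1 was the lowest library and replicate 2 the highest, so the treated groups overlapped the untreated ones. In bulk samples fewer cells that express these genes and less RNA per cell cannot be told apart. Replicate 2 of the treated HFSCs held the highest level of 37 members and lay above the 8-library mean in 76 of 78, whereas replicate 1 lay above it in 15. Treated progenitor replicate 1 held the highest level of a further 22 members. Differences between replicate 2 and replicate 1 over 10861 genes correlated at 0.39 to 0.713 between the other 3 RNA-seq groups but at -0.666 to -0.389 between each of them and the treated HFSCs, so the treated HFSC libraries differed from each other in the opposite direction. The members' medians are therefore also given without each of them. The same was done for the members with the largest differences and the lists of related genes in the averaged comparison of N1-AcSpd.

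**Figure D2:**
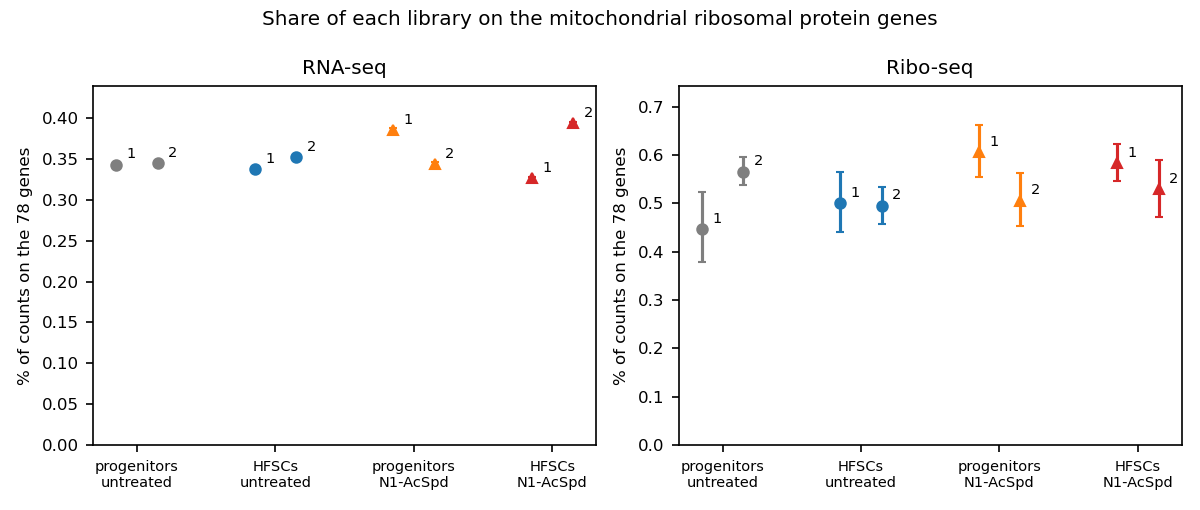
Percentage of the counts of each library that fell on the 78 genes, RNA-seq on the left and Ribo-seq on the right, with the replicate number beside each point and bars for the exact 95% interval of counting error. In RNA-seq the 2 treated HFSC libraries were the lowest (0.326%) and the highest (0.394%) of all.

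HFSCs and progenitors were compared first, the contrast of the stem cells with their progeny. The members were close to level between both populations. In untreated cells the HFSC level was above the progenitor level in 22 members and below it in 56, and the median difference was -0.04 on the log2 scale, while the median of all 14205 genes was -0.01 and 47.7% of them were higher. Under N1-AcSpd 29 members were higher and 49 lower, with a median of -0.04. No member passed an adjusted p of 0.05 in either comparison, against 0.148% and 0.746% of all genes, and the smallest adjusted p over the members was 0.426 and 0.591 (edgeR quasi-likelihood test, Benjamini-Hochberg adjustment). At an unadjusted p under 0.05 there were 2 members (Mrpl1 and Mrpl9, both lower in HFSCs) among untreated cells and 0 under N1-AcSpd, where 9.58% and 11.2% of all genes passed. DESeq2 called 0 members in both.

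Mrpl1, the homologue of bacterial L1, was at 28.6 and 28.4 CPM in untreated progenitors and at 22.2 and 24.1 in untreated HFSCs. Both HFSC libraries were below both progenitor libraries, by -0.30 ± 0.11 (SE) on the log2 scale (edgeR adjusted p = 0.426). Mrpl9, homologous to bacterial L9, was at 51.4 and 47.2 in untreated progenitors and at 41.4 in both untreated HFSC libraries, a difference of -0.25 ± 0.10 (adjusted p = 0.462). Mrps7, a protein of the head of the small subunit (chr11:115603925-115608036), was at 58.6 and 57.9 against 49.0 and 49.6, a difference of -0.24 ± 0.12 (adjusted p = 0.606). In the other direction Mrps31 had the smallest p, with a difference of 0.24 ± 0.12 (adjusted p = 0.609), followed by Mrpl48 and Mrpl44. Mrpl44, an RNase III-like protein of the large subunit, was at 32.4 and 31.6 in untreated progenitors and at 32.4 and 36.8 in untreated HFSCs, so these groups overlapped.

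Averaged over both treatments, HFSCs had the higher level of 20 members and the lower level of 58 (median -0.03). No member passed the adjusted test, against 3.91% of all genes, and 2 members (Mrps7 and Mrpl9, both lower) had an unadjusted p under 0.05, against 18.1%. The smallest adjusted p was 0.206, for Mrps7, at -0.23 ± 0.09. The 95% interval of the averaged difference lay within 0.5 of 0 on the log2 scale for all 78 members. Groups of 2 libraries did not overlap in 3 members that were higher and 24 that were lower in untreated HFSCs, against 19.1% and 21.6% of all genes. Under N1-AcSpd they did not overlap in 3 members higher and 5 lower, against 19.6% and 19.5%. All 4 HFSC libraries lay above all 4 progenitor libraries in 0 members and below them in 0, against 5.1% and 4.42% of all genes.

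Under N1-AcSpd and in the average the direction turned with single libraries. Without treated HFSC replicate 1 the median under N1-AcSpd was 0.08 with 66 members higher, and without replicate 2 it was -0.16 with 9 higher. Without treated progenitor replicate 1 it was 0.00 with 39 higher. The averaged difference moved likewise, to 0.03 with 47 members higher without replicate 1 and to -0.10 with 7 higher without replicate 2. In untreated cells the median kept its sign, at -0.01 with 33 higher without untreated HFSC replicate 1 and at -0.10 with 12 higher without untreated HFSC replicate 2. Among the late differentiation markers, Ivl, Krt1 and Krt10 were lower in HFSCs on average, by -0.71 ± 0.07, -1.75 ± 0.26 and -1.87 ± 0.34 (edgeR adjusted p = 0.00245, 0.0101 and 0.0206), and their part in the members' values was not tested.

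N1-AcSpd was compared with no treatment next, to ask how the acetylated polyamine changes the transcripts and their translation. More members were higher than lower with N1-AcSpd in the RNA of both populations, by small amounts. In progenitors 60 members were higher and 18 lower, with a median difference of 0.07 on the log2 scale. In HFSCs 66 were higher and 12 lower, with a median of 0.09, and averaged over both populations 64 were higher and 14 lower, with a median of 0.09 (1.07-fold). The median of all 14205 genes was -0.01 in each of these comparisons, with 47.2%, 47.8% and 47.1% of them higher. No member passed an adjusted p of 0.05 in any of the 3, against 0.239%, 0.0% and 1.64% of all genes, and the smallest adjusted p was 0.489, 0.562 and 0.117 (edgeR quasi-likelihood test).

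At an unadjusted p under 0.05 there were 2 members in progenitors, 5 in HFSCs and 11 in the average of both populations, all of them higher with N1-AcSpd. The 11 differences ran from 0.18 (Mrpl3) to 0.41 (Mrps18b) on the log2 scale. In that direction 4.48%, 4.31% and 7.63% of all genes passed, and 8.88%, 7.74% and 15.6% passed in either direction. Large-subunit genes had a median of 0.08 with 42 of 51 higher in the average, and small-subunit genes 0.10 with 21 of 26 higher. The genes with a bacterial homologue had a median of 0.09 (36 of 46 higher) and the mitochondria-specific ones 0.08 (26 of 30 higher). The 25 genes with CCGGAAG in their promoter and the 44 without it both had a median of 0.08. The 95% interval of the averaged difference lay within 0.5 of 0 for 75 of the 78 members.

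Mrps18b (chr17:35910379-35916389), 1 of the 3 Mrps18 genes and classed here as specific to mitochondria, had the largest averaged difference. It was at 65.2 and 83.1 CPM in untreated progenitors, 59.95 and 73.0 in untreated HFSCs, 82.4 and 106 in treated progenitors, and 83.9 and 101 in treated HFSCs. The treated libraries were above the untreated ones in HFSCs, whereas in progenitors the ranges touched, with untreated replicate 2 just above treated replicate 1. The averaged difference was 0.41 ± 0.12 on the log2 scale (1.33-fold, edgeR adjusted p = 0.161). DESeq2 gave 0.42 ± 0.13 and the gene passed (adjusted p = 0.0433), where 4.43% of all genes did. Without treated HFSC replicate 1 the edgeR difference was 0.46 and without replicate 2 it was 0.35. Only 51.0% of the 28-base words of Mrps18b were unique, and 360 of them stood in its processed copy Gm13552 on chromosome 2, so its counts may be divided between both. The other Mrps18 genes, Mrps18a and Mrps18c, had averaged differences of 0.18 ± 0.09 (adjusted p = 0.415) and 0.01 ± 0.10 (adjusted p = 0.984).

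Mrpl19 (chr6:81957851-81965958), the homologue of bacterial L19 at the interface of the subunits, had the smallest p. It was at 32.5 and 31.0 CPM in untreated progenitors, 27.7 and 29.9 in untreated HFSCs, 40.0 and 37.2 in treated progenitors, and 33.9 and 36.6 in treated HFSCs. All 4 treated libraries lay above all 4 untreated ones, with an averaged difference of 0.29 ± 0.08 (1.22-fold, adjusted p = 0.117). Mrps7 was at 58.6 and 57.9, 49.0 and 49.6, 75.1 and 67.1, and 54.6 and 67.6 in the same order of groups. Both treated groups were above their own untreated group, and the averaged difference was 0.30 ± 0.09 (1.23-fold, adjusted p = 0.147). Mrpl12 was at 104 and 103, 93.1 and 93.8, 137 and 117, and 101 and 139, a difference of 0.33 ± 0.11 (1.26-fold, adjusted p = 0.181). Without treated HFSC replicate 1 and without replicate 2, the differences were 0.31 and 0.27 for Mrpl19, 0.36 and 0.23 for Mrps7, and 0.43 and 0.22 for Mrpl12, and none passed the adjusted test. Mrps30 gave 0.20 ± 0.09 (adjusted p = 0.307), and Mrps36, which is not a ribosomal subunit, 0.06 ± 0.13 (adjusted p = 0.881).

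In the other direction the 3 members with the smallest p were Mrpl24, Mrpl14 and Mrpl23. Mrpl24, homologous to bacterial L24 (chr3:87919506-87923672), was at 86.8 and 88.2 in untreated progenitors, 83.8 and 91.3 in untreated HFSCs, 77.7 and 79.6 in treated progenitors, and 74.2 and 83.6 in treated HFSCs. All 4 treated libraries lay below all 4 untreated ones, by -0.15 ± 0.07 (0.90-fold, adjusted p = 0.364), and the difference was -0.12 without treated HFSC replicate 1 and -0.19 without replicate 2. Mrpl14 and Mrpl23 gave -0.13 ± 0.09 and -0.12 ± 0.09 (adjusted p = 0.557 and 0.573). Over all members, the 4 treated libraries lay above the 4 untreated ones in 8 (Mrpl19, Mrpl32, Mrpl49, Mrps5, Mrps6, Mrps10, Mrps28 and Mrps30) and below them in 1 (Mrpl24), against 3.95% and 3.88% of all genes. Mrpl32, Mrpl49 and Mrps10 are named here after their values were seen. Within progenitors the treated pair lay above the untreated pair in 26 members and below it in 8, against 18.1% and 20.7% of all genes. Within HFSCs this held for 23 and 2 members, against 16.7% and 17.2%, and these counts rest on both treated HFSC libraries.

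**Figure D3:**
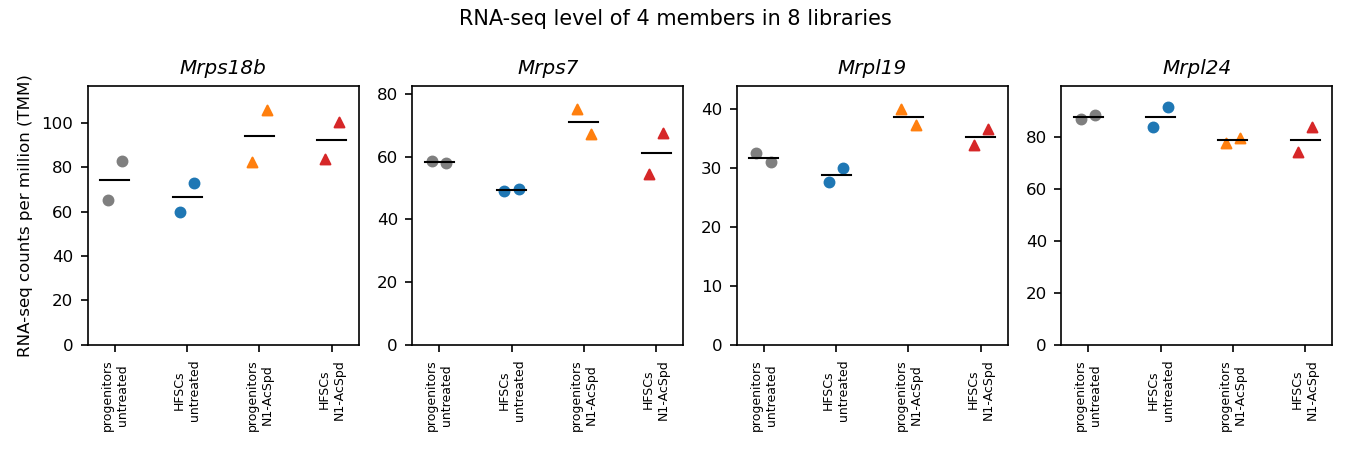
RNA-seq level of Mrps18b, Mrps7, Mrpl19 and Mrpl24 in TMM-scaled CPM, with a point for each of the 2 libraries of a group and a line for their mean. For Mrpl19 all treated libraries (33.9 to 40.0) lay above all untreated ones (27.7 to 32.5), and for Mrpl24 all treated libraries lay below.

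The size of the members' shift with N1-AcSpd varied with single libraries as well, and its median turned only in HFSCs. Without treated HFSC replicate 2, the library with the largest share of counts on these genes, the median difference in HFSCs was -0.07 with 28 members higher, and without replicate 1 it was 0.20 with 74 higher. The averaged difference had a median of 0.01 with 40 members higher without replicate 2, and one of 0.15 with 71 higher without replicate 1. Without treated progenitor replicate 1 it was 0.06 with 55 higher. In progenitors the median was 0.03 with 44 members higher without treated replicate 1 and 0.13 with 64 higher without treated replicate 2. Of the 5 late differentiation markers, none of them at 0, all were higher with the treatment on average and 2 passed the adjusted test. These were Ivl and Krt1, which mark keratinocytes that leave the basal layer and rose by 1.16 ± 0.07 and 1.64 ± 0.26 on the log2 scale (edgeR adjusted p = 0.00131 and 0.0221). Krt1 still passed without treated progenitor replicate 2 or treated HFSC replicate 1, and had an edgeR adjusted p of 0.0546 to 0.0845 without any of the other 6 libraries. In HFSCs alone 4 of the 5 were higher and 1 was lower, and none passed. Their summed level was 27.6 to 62.9 CPM in the untreated libraries and 49.2 to 214 in the treated ones. Krt15 was lower with N1-AcSpd on average by -0.99 ± 0.08 (edgeR adjusted p = 0.00446). It was the only 1 of the 6 HFSC markers that passed. Of these 6 markers, 5 were lower and 1 was higher, with a median of -0.14. The part of the late differentiation and HFSC markers in the result was not tested.

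The test of whether N1-AcSpd acted unequally on both populations called 0 of the 78 members, against 0.0% of all genes, with every adjusted p at 1.0. At an unadjusted p under 0.05 there was 1 member (Mrpl1), against 0.831% of all genes. In treated progenitors Mrpl1 was at 24.2 and 26.9 CPM, below the untreated pair, and in treated HFSCs at 27.4 in both libraries, above the untreated pair. The interaction was 0.40 ± 0.16 on the log2 scale. With 2 libraries a group the interval of this term was wide, and it lay within 0.5 of 0 for 32 of the 78 members.

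**Figure D4:**
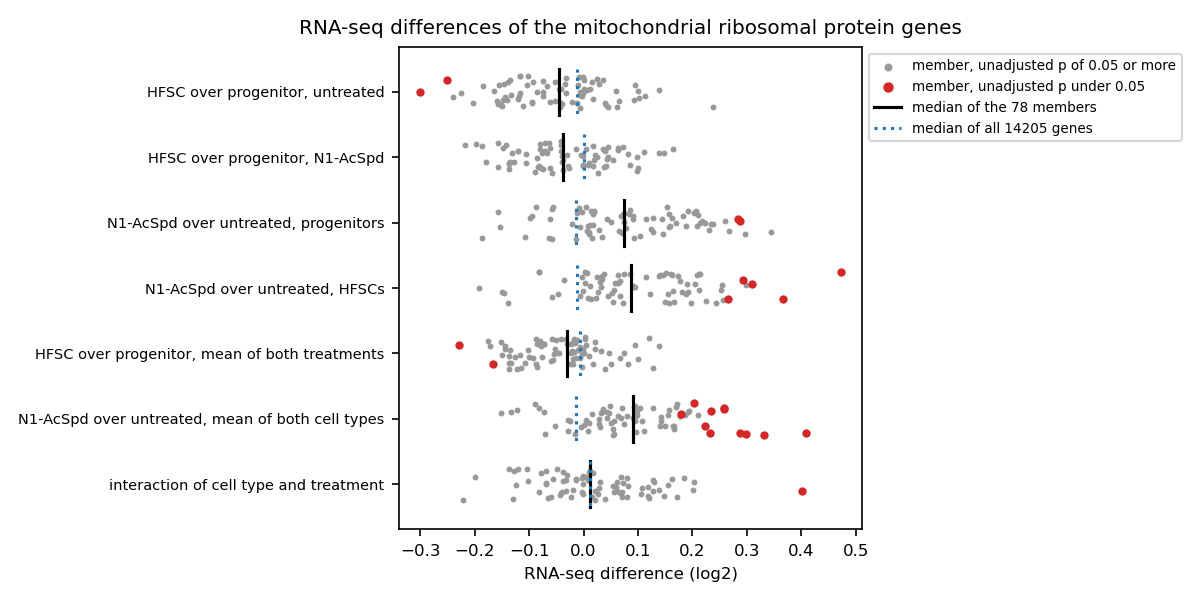
RNA-seq difference of each of the 78 members on the log2 scale in the 7 comparisons, with red for an unadjusted p under 0.05, a black line for the median of the members and a dotted line for the median of all 14205 genes. The members' median lay at 0.07 to 0.09 in the 3 N1-AcSpd comparisons and at -0.04 to -0.03 in the 3 cell type comparisons, and no member passed an adjusted p of 0.05.

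Related genes of mitochondrial translation were read from lists written with earlier results of these data known. In the averaged RNA comparison of N1-AcSpd with no treatment, all 5 further subunit genes of the mitochondrial ribosome whose symbols lack Mrpl or Mrps were higher, with a median of 0.25. Of 26 assembly factors of this ribosome 20 were higher (median 0.08), of 15 mitochondrial translation factors 11 (0.05), and of 20 mitochondrial aminoacyl-tRNA synthetases 14 (0.04). The 13 protein-coding genes of the mitochondrial genome, whose products this ribosome makes, were all higher, with a median of 0.37. Of the 77 cytosolic ribosomal protein genes 26 were higher, with a median of -0.05. None of the genes in these 6 lists passed the adjusted test in this comparison. Without treated HFSC replicate 2 the medians were 0.18 for the further subunits, 0.04 for the assembly factors, 0.04 for the translation factors, 0.03 for the synthetases, 0.46 for the mitochondrial genome and -0.09 for the cytosolic genes. Without replicate 1 they were 0.26, 0.10, 0.06, 0.05, 0.34 and -0.02. Between HFSCs and progenitors, averaged over both treatments, 1 of the 77 cytosolic genes was higher in HFSCs (median -0.06), and none of these lists held a gene past the adjusted test. These cell type values are given with all libraries only.

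Ribo-seq gave 74 members with a mean of at least 1 footprint, among 8431 genes tested. The mean footprint level per kb ran from 0 (Mrpl23) to 747 (Mrps21), with a median of 83.0 over the 78 members, and 68 of them lay above 31.8, the median of all genes ranked. The 5 highest members were Mrps21, Mrps14, Mrpl52, Mrpl53 and Mrpl17. Mrps14, the homologue of bacterial S14, was at 176 and 251 CPM in untreated progenitors, 304 and 169 in untreated HFSCs, 187 and 268 in treated progenitors, and 161 and 199 in treated HFSCs. These values overlapped among all groups, and they rested on 7 to 62 footprints a library. Mrps21 was at 604 in untreated progenitor replicate 1, from 24 footprints, and at 74.7 to 201 in the other 7 libraries, so its rank rested in part on the shallowest library. The 5 lowest members were Mrpl23, Mrps36, Mrps33, Mrpl30 and Mrpl27. Mrpl23, homologous to bacterial L23 (chr7:142533782-142540747), had 0 footprints in all 8 libraries, which allows a share of up to 0.0087% in the shallowest and 0.00112% in the deepest library (3 counts), although its RNA level was 64.9 per kb. Mrps36 and Mrps33 had 2 footprints each over all libraries, Mrpl30 7 and Mrpl27 9.

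These low members all had copies elsewhere, but so did members with more footprints. The share of unique 28-base words was 9.52% in Mrps36, 9.62% in Mrps33, 19.4% in Mrpl23, 29.7% in Mrpl27 and 52.1% in Mrpl30. In Mrps21, the member with the highest footprint level per kb, the share was 52.6%. Over the 12 members with under 50% unique words, the ratio of Ribo-seq to RNA-seq CPM had a median of 0.491 and reached at most 1.46. Over the 26 members with 50% to under 100% it had a median of 1.31, and over the 40 with all words unique one of 1.83. The RNA level per kb of these classes had medians of 62.2, 80.3 and 59.2. Across the 78 members, all from the same libraries, the share of unique words had a Spearman correlation of 0.455 with the ratio and of -0.152 with the RNA level, and coding length one of 0.117 with the ratio. The ratio was low in some members without copies as well, with 0.294 in Mrpl34, 0.425 in Mrps24 and 0.477 in Mrpl37, 3 genes chosen after their values were seen. How reads with several places were treated was not given in the sources used here, and its part in the ratios was not tested. Cytosolic ribosomal protein genes had a median of 3.63% unique words, and 30 of the 77 had 0 footprints in all libraries.

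**Figure D5:**
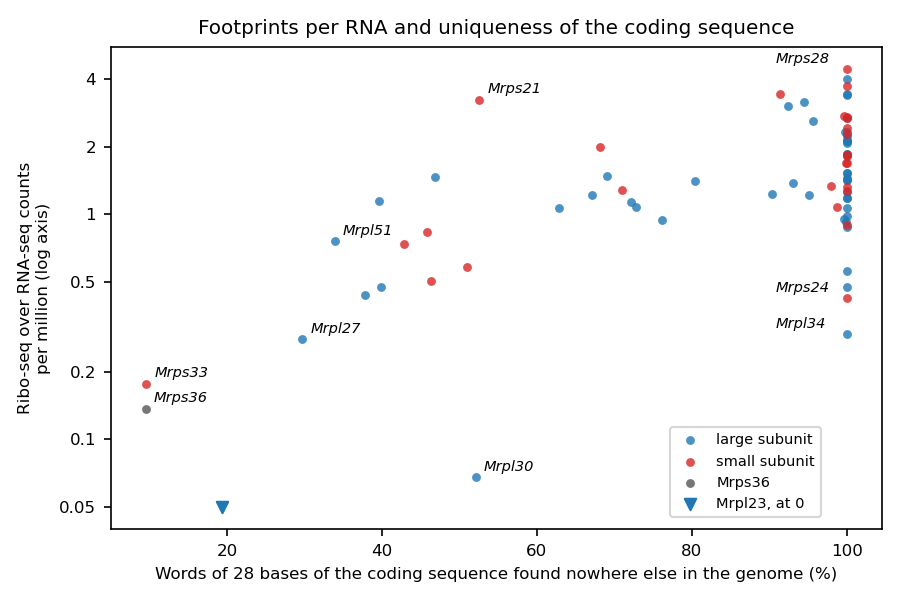
Ratio of Ribo-seq to RNA-seq CPM, as means over 8 libraries on a log axis, against the percentage of 28-base words of the coding sequence found nowhere else in the genome, with 1 point per member and a triangle at the lower edge for Mrpl23, which had 0 footprints. Members with under 50% unique words reached at most 1.46, whereas members with all words unique ran from 0.294 to 4.43.

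Among the 16 members that averaged 10 footprints or more, the ratio of footprints to RNA ran from 1.07 to 4.43. The 5 highest were Mrps28 (4.43), a homologue of bacterial S1, Mrpl50 (3.98), Mrps14 (3.43), Mrpl53 (3.41) and Mrps21 (3.24). The footprints of Mrps21 stood at 604 CPM in untreated progenitor replicate 1, the shallowest library, and at 74.7 to 201 elsewhere. Its ratio and its place among the 5 thus rested in part on the 24 footprints of that library. The ratio of Mrps28 was 1.86 and 5.85 in untreated progenitors, 4.89 and 4.16 in untreated HFSCs, 5.03 and 2.32 in treated progenitors, and 6.67 and 4.69 in treated HFSCs. The 5 lowest were Mrpl12 (1.07), Mrps17 (1.33), Mrpl13 (1.52), Mrpl24 (1.86) and Mrpl52 (2.12). Mrpl12 was at 0.969 and 1.30, 0.962 and 1.11, 0.998 and 0.858, and 1.86 and 0.714 in the same order of groups. The lowest library of Mrps28, with 2 footprints, and the highest library of Mrpl12 both stood at 1.86, and within each of the 8 libraries Mrps28 was above Mrpl12. Of the 74 members with a mean of 1 count in both assays, 48 lay above 1.20, the median of the 8430 genes with such counts.

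No member's footprints differed between groups past the adjusted test. The share of footprints on the 78 genes was 0.447% and 0.566% in untreated progenitors, 0.5003% and 0.495% in untreated HFSCs, 0.606% and 0.506% in treated progenitors, and 0.584% and 0.529% in treated HFSCs. The interval of the first value was 0.379% to 0.523%. Both untreated HFSC libraries were below both libraries of each treated group, and the other pairs of groups overlapped. The intervals of untreated HFSC replicate 1 (0.4416% to 0.5645%) and treated progenitor replicate 2 (0.4522% to 0.5639%) overlapped, so counting error alone could span that gap. None of the members passed between HFSCs and progenitors in untreated cells, under N1-AcSpd or averaged, against 0.0237%, 0.0356% and 0.154% of all genes. None passed with N1-AcSpd in progenitors, in HFSCs or averaged, against 0.0237%, 0.0% and 0.083%, nor in the interaction, against 0.0%. At an unadjusted p under 0.05 there were 1, 0 and 1 members between cell types, against 2.66%, 3.45% and 4.14% of all genes, 1, 0 and 1 with N1-AcSpd, against 2.8%, 3.55% and 4.84%, and 1 in the interaction, against 2.66%. DESeq2 called none either.

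The median over the 74 members was -0.02, -0.06 and -0.04 for HFSCs over progenitors in the same order, and 0.00, 0.32 and 0.12 for N1-AcSpd over no treatment in progenitors, HFSCs and both. Over all genes these medians were -0.02, 0.03 and 0.00, and -0.05, 0.00 and -0.04. With the member that had a group at 0 set to its bound of 3 footprints, the median in HFSCs was 0.27. The median standard error of a member's averaged difference was 0.62 to 0.63 on the log2 scale, and a 95% interval within 0.5 of 0 was reached by at most 1 member in any comparison. Among members with at least 10 footprints, Mrpl52, Mrpl17 and Mrpl13 had the smallest p for higher footprints with N1-AcSpd on average. Mrpl52 was at 126 and 158 CPM in untreated progenitors, 89.5 and 185 in untreated HFSCs, 199 and 218 in treated progenitors, and 202 and 182 in treated HFSCs. Both treated progenitor libraries were above their untreated pair, and the averaged difference was 0.45 ± 0.42 (edgeR adjusted p = 1.0). Mrps17, Mrpl24 and Mrps21 had the smallest p for lower footprints, with -0.55 ± 0.57, -0.38 ± 0.42 and -0.31 ± 0.43, all at an adjusted p of 1.0. These directions turned without 1 untreated progenitor library, to 0.15 for Mrps17 and 0.49 for Mrpl24 without replicate 2, the deepest, and to 0.37 for Mrps21 without replicate 1. Between cell types the members with the smallest p were Mrpl13, Mrps28 and Mrps34 for higher and Mrps21, Mrpl20 and Mrpl40 for lower footprints in HFSCs. Of the members named for lower footprints, Mrps17, Mrpl20 and Mrpl40 reached a mean of 10 footprints only through untreated progenitor replicate 2. They held 44, 39 and 42 footprints there. Mrpl20, the homologue of bacterial L20, was at 176 and 158, 125 and 88.3, 137 and 151, and 97.7 and 149, a difference of -0.47 ± 0.47 (adjusted p = 1.0).

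Translational efficiency, the footprints relative to the RNA of the same lysates, was tested as the interaction of assay and group. No member passed the adjusted test with edgeR or DESeq2, and with edgeR 0.0% of all genes did in each of the 6 comparisons. At an unadjusted p under 0.05 there were 2, 2 and 4 members between cell types in untreated cells, under N1-AcSpd and averaged, against 5.24%, 6.24% and 6.01% of all genes. With N1-AcSpd there were 2, 1 and 2 in progenitors, HFSCs and averaged, against 6.1%, 6.87% and 7.37%. The median over the members was -0.06 for HFSCs over progenitors and -0.03 for N1-AcSpd, both averaged, against 0.00 and -0.06 over all genes, and the median standard error was 0.48 in each. Mrps17, homologous to bacterial S17, had the smallest p among the members with at least 10 footprints for lower efficiency with N1-AcSpd. Its ratio was 0.953 and 3.03 in untreated progenitors, 1.03 and 1.41 in untreated HFSCs, 1.27 and 0.834 in treated progenitors, and 1.65 and 0.518 in treated HFSCs. The replicates differed by more than the groups, and the averaged difference was -0.73 ± 0.44 (adjusted p = 0.719). Mrpl50 and Mrpl40, large-subunit proteins specific to mitochondria, had differences of -0.53 ± 0.40 and -0.56 ± 0.41 between HFSCs and progenitors (adjusted p = 0.894 and 0.892). Mrps17, Mrpl50 and Mrpl40 held 44, 33 and 42 footprints in untreated progenitor replicate 2, and at most 18 in any other library. They reached a mean of 10 footprints only through that library, which lies in the group where they were high. Without it their differences were 0.07, 0.09 and 0.21.

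Footprints on the genes of the mitochondrial genome, the templates of the mitochondrial ribosome, were set beside those of its proteins. Of the 7 such genes tested in Ribo-seq, all 7 were lower with N1-AcSpd on average, and 2 passed the adjusted test, mt-Cytb at -2.83 ± 0.39 and mt-Co1 at -1.92 ± 0.33 on the log2 scale (edgeR adjusted p = 6.05e-09 and 2.05e-05). Both encode core subunits of the respiratory chain. The summed footprint level of the 13 genes was 5664 CPM in untreated progenitor replicate 1 and 436 to 2014 in the other libraries, while their summed RNA level was 44670 to 88780. The 4 treated libraries (436 to 946) lay below that library and below the other 3 untreated ones (1128 to 2014), and without it 1 gene passed, mt-Cytb at -1.82 ± 0.43 (adjusted p = 0.0374), whereas mt-Co1 was at -1.20 ± 0.33 (adjusted p = 0.13). The members' own footprints had a median difference of 0.12 in that comparison.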

How the data were processed

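RNA-seq and Ribo-seq were measured in 16 libraries, 2 per assay in each of 4 groups. The authors deposited raw counts per transcript (64026 transcripts). The submitters' processing notes name Bowtie 1.2.3, STAR 2.7.3a, featureCounts and GRCm38.p5, and the treatment of reads with several places is not given in the sources used here. No molecular identifiers are described for these libraries, so amplified copies of a fragment may have been counted repeatedly. The intervals cover the counting error of reads only and can be too narrow. A second deposited table, used here for gene symbols, also holds the authors' own comparisons of translation, which were not used. For each gene the transcript with most footprints was kept (22579 genes). RNA-seq libraries held 21601141 to 31505435 counts and Ribo-seq libraries 34467 to 267921.

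Genes averaging 1 count or more were tested with edgeR 4.0.16 in R 4.3.3 (TMM factors, quasi-likelihood test, 8 libraries an assay, Benjamini-Hochberg adjustment over all genes tested, threshold 0.05), in 7 comparisons an assay. Translational efficiency was the interaction of assay and group in 6 comparisons, with an estimate of the spread shared by both assays. DESeq2 1.42.0 was an alternative, and the others were RLE factors, no minimum or one of 10 counts on average, the replicate number as a replicate block, other sets of libraries in the fit, each library left out, counts summed over transcripts and an unadjusted threshold. The scripts were tested on simulated data.

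Whether a replicate number marks the same donor in every group is not given in the sources used here, nor is the model formula of the study's tests, and the tests reported had no block.

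The members and the gene lists were chosen with earlier results of these data known. Members were named if they passed the adjusted test or had 1 of the 3 smallest p in a direction of a comparison (for footprints and efficiency, with a mean of at least 10 footprints). Also named were the 5 highest and 5 lowest members by level and by ratio, the 3 Mrps18 genes, Mrps30, Mrps36 and Mrpl12.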

Additional observations from a re-analysis of the deposited data

Results flagged for a closer look

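Mrpl1 and Mrpl21 in RNA-seq and Mrpl53 in Ribo-seq were looked at again because both libraries of each treated group moved one way in one cell type and the opposite way in the other. The share of all genes with this pattern is not given here. In RNA-seq the treated pair lay above the untreated pair in 18.1% of all genes in progenitors and below it in 20.7%. In HFSCs these shares were 16.7% and 17.2%. For Mrpl1 the interaction of cell type and treatment was 0.40 ± 0.16 on the log2 scale (unadjusted p = 0.0358, edgeR adjusted p = 1.0), and the same value stands for the contrast of cell types, which was opposite under the 2 treatments. For Mrpl21 the levels were 50.1 and 52.0 CPM in untreated progenitors against 48.1 and 50.02 with N1-AcSpd, and 44.5 and 47.0 in untreated HFSCs against 47.6 and 53.5, with an interaction of 0.20 (edgeR adjusted p = 1.0). For Mrpl53 the footprint levels were 75.5 and 114 CPM in untreated progenitors, 197 and 160 in untreated HFSCs, 199 and 168 in treated progenitors and 105 and 133 in treated HFSCs, from 3 to 28 footprints a library, with an interaction of -1.44 (edgeR adjusted p = 1.0). None of these differences passed the adjusted test. With 2 libraries a group, no search for a library far from its group was possible.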

How the results depend on the processing

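Calls of members at an adjusted p under 0.05 were 0 in all 20 comparisons and stayed at 0 under every alternative tried, apart from RNA-seq with N1-AcSpd averaged over cell types, where DESeq2 and the replicate number as a replicate block each called 1 (Mrps18b, with the block 0.41 ± 0.06, adjusted p = 0.0434, where 0.95% of all genes passed). An alternative added after the data were seen, the same block with both treated HFSC numbers exchanged, called 4 members and 1260 of 14205 genes. The replicate block changed no other call. The libraries share only a number, and the differences between replicates 2 and 1 correlated at 0.0423 to 0.151 between Ribo-seq groups, beside the RNA-seq values given with the shares of counts. With an unadjusted threshold the counts in RNA-seq were 2 and 0 for HFSCs over progenitors untreated and treated, 2 and 5 for N1-AcSpd in progenitors and HFSCs, 2 and 11 for both averages and 1 for the interaction, in Ribo-seq 0 or 1, and for efficiency 2, 2, 2, 1, 4 and 2.

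Leaving out 1 library moved the RNA-seq medians to -0.158 to 0.0779 for HFSCs over progenitors with N1-AcSpd, -0.0729 to 0.205 for N1-AcSpd in HFSCs and -0.14 to 0.12 for the interaction. Ribo-seq medians ran from -0.19 to 0.59 and -0.24 to 0.44 for the cell types untreated and treated, -0.17 to 0.90 and 0.0371 to 0.474 for N1-AcSpd in progenitors and HFSCs, -0.27 to 0.30 and 0.014 to 0.557 for both averages, and -0.63 to 0.49 for the interaction, which was 0.40 with a minimum mean of 10 counts. Efficiency medians ran from -0.24 to 0.44 and -0.18 to 0.50 for the cell types, -0.28 to 0.74 and -0.0412 to 0.376 for N1-AcSpd in progenitors and HFSCs, and -0.14 to 0.38 and -0.11 to 0.46 for both averages. Most high ends came without untreated progenitor replicate 2, the deepest Ribo-seq library, and the cause was not tested.

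Named members turned direction only where 1 library was left out, and the lowest and highest value over the libraries left out are given for each. In RNA-seq this was Mrpl41 (-0.11 to 0.38) for HFSCs over progenitors with N1-AcSpd. In averaged Ribo-seq it was Mrpl13 (-0.31 to 3.46), Mrpl40 (-0.88 to 0.15), Mrps21 (-0.97 to 0.23) and Mrps34 (-0.0413 to 1.41) between cell types, and Mrpl24 (-0.77 to 0.49), Mrps17 (-1.10 to 0.15) and Mrps21 (-0.83 to 0.37) with N1-AcSpd. In averaged efficiency it was Mrpl12 (-0.21 to 0.29), Mrpl13 (-0.44 to 7.14), Mrpl40 (-0.95 to 0.21), Mrpl50 (-0.85 to 0.09) and Mrps28 (-0.0534 to 0.85) between cell types, and Mrpl17 (-0.25 to 0.60), Mrpl24 (-0.71 to 0.68), Mrpl50 (-0.17 to 0.82), Mrps14 (-0.49 to 0.0201) and Mrps17 (-1.35 to 0.0667) with N1-AcSpd. The highest values of Mrpl13 came where the only untreated progenitor library left held 0 of its footprints, and are no measure of size. Depth limits the footprints, with 16 of 78 members at a mean of 10 or more.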
